A study of Mus musculus with 130 samples.

Results

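The 10 genes described here encode the mitotic cyclin-dependent kinase Cdk1, its cyclins and the enzymes that switch it, and were chosen by symbol from a table of 52550 genes: Cdk1, Ccna2, Ccnb1, Ccnb2, Ccnf, Cdc25b, Cdc25c, Wee1, Pkmyt1 and Foxm1. All 10 had reads in each of 25 libraries, with at least 22 counts in any of them, and all 10 passed the filter on low counts. The libraries came from whole FVB/NJ mouse embryos carrying FUCCI, a pair of fluorescent proteins degraded at opposite ends of the cell cycle, so that colour tells whether a cell has entered S phase. Dissociated cells were sorted into 4 gates, which the labels code as BR for G0, DR for G1, YE for G1-S and GR for S-G2-M, and unsorted cells (US) were kept alongside. There were 5 preparations with all 5 fractions each, titled WT1 and WT2 (E10.5), WT3 (E11.5), and 5 and 8 (E13.5). No treatment or mutation is given, nor is the number of embryos behind each preparation. The tissue is given only as embryo, so each gate mixes cell types.

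Cdk1 drives entry into mitosis once a cyclin is bound and inhibitory phosphates on the kinase are removed. Cyclin A2 (Ccna2) acts from S phase on, while cyclins B1 and B2 (Ccnb1, Ccnb2) are the mitotic partners, destroyed by the anaphase-promoting complex when chromosomes separate. Wee1 and Pkmyt1 (also called Myt1) place the inhibitory phosphates, and the phosphatases Cdc25b and Cdc25c remove them. Cyclin F (Ccnf) differs from the others in that it does not activate a kinase but serves as the substrate receptor of an SCF ubiquitin ligase. Foxm1 is a transcription factor that, with the MuvB complex, turns on mitotic genes, several of the others here among them.

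Mitotic promoters are known for pairs of CCAAT boxes, bound by NF-Y, and for the cell cycle genes homology region (CHR), the element through which MuvB binds. RefSeq start sites on GRCm38.p6 were at hand for Cdk1, Ccnb1, Ccnb2, Ccnf and Cdc25b, and the 150 bases before each are shown 5′ to 3′ in the direction of the gene because these were the members with an entry, the kinase, 3 cyclins and a phosphatase. Capitals mark TTTGAA (the CHR core) and CCAAT or, for a box on the other strand, its complement ATTGG. The intervals are chr10:69352913-69353062 (minus strand) for Cdk1, chr13:100786487-100786636 (minus) for Ccnb1, chr9:70421555-70421704 (minus) for Ccnb2, chr17:24251410-24251559 (minus) for Ccnf and chr2:131186798-131186947 (plus) for Cdc25b.
Cdk1: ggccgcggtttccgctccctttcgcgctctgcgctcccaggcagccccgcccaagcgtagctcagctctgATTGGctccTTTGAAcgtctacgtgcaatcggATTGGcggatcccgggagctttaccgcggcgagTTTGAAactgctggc
Ccnb1: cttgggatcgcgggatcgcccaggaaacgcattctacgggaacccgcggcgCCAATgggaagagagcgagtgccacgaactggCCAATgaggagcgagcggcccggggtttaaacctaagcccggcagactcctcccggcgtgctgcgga
Ccnb2: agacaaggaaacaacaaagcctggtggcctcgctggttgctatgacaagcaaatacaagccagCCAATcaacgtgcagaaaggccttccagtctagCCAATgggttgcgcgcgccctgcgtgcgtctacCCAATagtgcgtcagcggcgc
Ccnf: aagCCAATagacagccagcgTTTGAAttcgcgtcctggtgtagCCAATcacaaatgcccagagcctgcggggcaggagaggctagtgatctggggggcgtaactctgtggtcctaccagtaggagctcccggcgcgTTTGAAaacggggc
Cdc25b: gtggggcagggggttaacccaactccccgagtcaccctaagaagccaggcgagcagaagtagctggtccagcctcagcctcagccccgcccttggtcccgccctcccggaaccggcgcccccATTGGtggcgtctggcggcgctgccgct
Over the 250 bases before the start, TTTGAA occurred in Cdk1 (71 and 15 bases before the start), Ccnf (130 and 14) and Ccnb2 (167, outside the stretch shown). It was in none of these windows for Ccnb1 and Cdc25b, and the variant TTCGAA was in none of the 5. CCAAT lay 208, 80 and 48 bases before the start in Cdk1, 99 and 67 in Ccnb1, 87, 54 and 21 in Ccnb2, 147 and 107 in Ccnf, and 28 in Cdc25b. On either strand, TTTGAA was found in 16% of 32851 RefSeq windows of that length, TTCGAA in 1.34% and CCAAT in 33.8%. No 2 of the matches overlapped, and a match is a description of the letters only. Ccna2, Cdc25c, Wee1, Pkmyt1 and Foxm1 had no entry in the table of start sites used here.

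On GRCm38 with GENCODE M21, Cdk1 lay on chromosome 10 (69335146 to 69352938, minus strand), Ccna2 on chromosome 3 (36564865 to 36572150, minus), Ccnb1 on chromosome 13 (100778650 to 100786570, minus) and Ccnb2 on chromosome 9 (70407692 to 70421547, minus). Ccnf and Pkmyt1 were both on chromosome 17, at 24222198 to 24251484 (minus) and 23726336 to 23736735 (plus). Cdc25b was on chromosome 2 (131186949 to 131198497, plus), Wee1 on chromosome 7 (110122046 to 110143286, plus), Foxm1 on chromosome 6 (128362967 to 128376146, plus) and Cdc25c on chromosome 18. The RefSeq starts of Cdk1, Ccnb1 and Ccnf lay inside these GENCODE bounds, so their stretches shown above run partly within the gene. That part holds TTTGAA at 15 in Cdk1 and 14 in Ccnf, and CCAAT at 67 in Ccnb1. Ccnb1 was the member with near-identical copies elsewhere in the genome, 5 pseudogenes with at least 90% identity over at least 200 bases. The processed pseudogene Ccnb1-ps shared 99.2% of 1287 bases and was given 19066 counts over all libraries, beside 72304 for Ccnb1. Its level followed the gates as Ccnb1 did, with 62.4 ± 5.14 CPM in S-G2-M and 1.02 ± 0.47 CPM in G0 (SD, n = 5 each), so how reads were divided between the gene and its copies is uncertain. Whether counting used strand is not given in the sources used here, which makes reads uncertain where a gene lies across another. Exons of the opposite strand covered 12.5% of Ccna2 (Exosc9), 12.7% of Cdc25c (Gm3550), 8.8% of Pkmyt1 (Paqr4) and 2.5% of Cdc25b (Spef1).

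Library totals were 14692256 to 58492064 counts (median 22852555). Levels are given as CPM, counts-per-million of the library total after scaling by TMM factors, and for comparisons between genes as CPM per kb of exon. Reads of mitochondrial genes were 1.66 to 3.42% of the total in preparations 5 and 8 against 0.372 to 0.701% in WT1, WT2 and WT3, so E13.5 and a difference in how libraries were made cannot be told apart. Genes of the G1-S transition were highest in the gate labelled G1-S: Ccne1 (cyclin E1) averaged 114.7 CPM there, Ccne2 (cyclin E2) 144.4 CPM and Cdc6, a replication licensing factor, 158.5 CPM, each above its mean in the other 3 gates. Changes were tested with edgeR's quasi-likelihood test over 23506 genes, with Benjamini-Hochberg adjustment and calls at an adjusted p under 0.05. Neighbouring steps share the gate between them, so their changes are not independent. In bulk RNA, fewer cells of a type and less RNA per cell cannot be told apart.

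Of the 10 genes, Ccnb1 had the largest S-G2-M over G0 change and the inhibitory kinase Pkmyt1 the smallest. Cdk1 had 256.9, 274.7, 265.1, 322.1 and 300.4 CPM in the S-G2-M libraries of WT1, WT2, WT3, 5 and 8, against 5.27, 10.6, 12.3, 10.6 and 8.58 CPM in the G0 libraries in the same order. Ccnb1 had 229.4, 246.6, 233.9, 291.2 and 243.3 CPM in S-G2-M against 2.14, 5.23, 4.25, 3.26 and 2.75 CPM in G0. The groups were far apart in every preparation. All 10 members were called higher in S-G2-M than in G0, where 27.5% of all genes tested were. The change of Ccnb1 was 6.16 ± 0.34 on the log2 scale or 71.4-fold (SE, adjusted p = 8.73e-13 by edgeR), followed by Cdc25c at 5.63 ± 0.38, Ccna2 at 5.10 ± 0.26, Foxm1 at 4.99 ± 0.23 and Cdk1 at 4.93 ± 0.24. Ccnb2 changed by 4.71 ± 0.37 and Ccnf by 4.40 ± 0.21. The smallest changes were those of Wee1 (2.87 ± 0.16), Cdc25b (1.83 ± 0.33) and Pkmyt1 (1.45 ± 0.20). These add or remove the inhibitory phosphates, but so does Cdc25c, whose change was the next largest after Ccnb1. Neuronal markers moved the other way: all 14 on the list fell, and their summed level was 242.0 to 604.8 CPM in S-G2-M against 5586 to 9858 CPM in G0. Of the cardiac markers, 8 of 10 also fell. Rising with the members were 7 of 10 neural progenitor markers and 6 of 10 mesenchyme and cartilage markers. The part of these differences in cell types in the result was not tested.

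**Figure D1:**
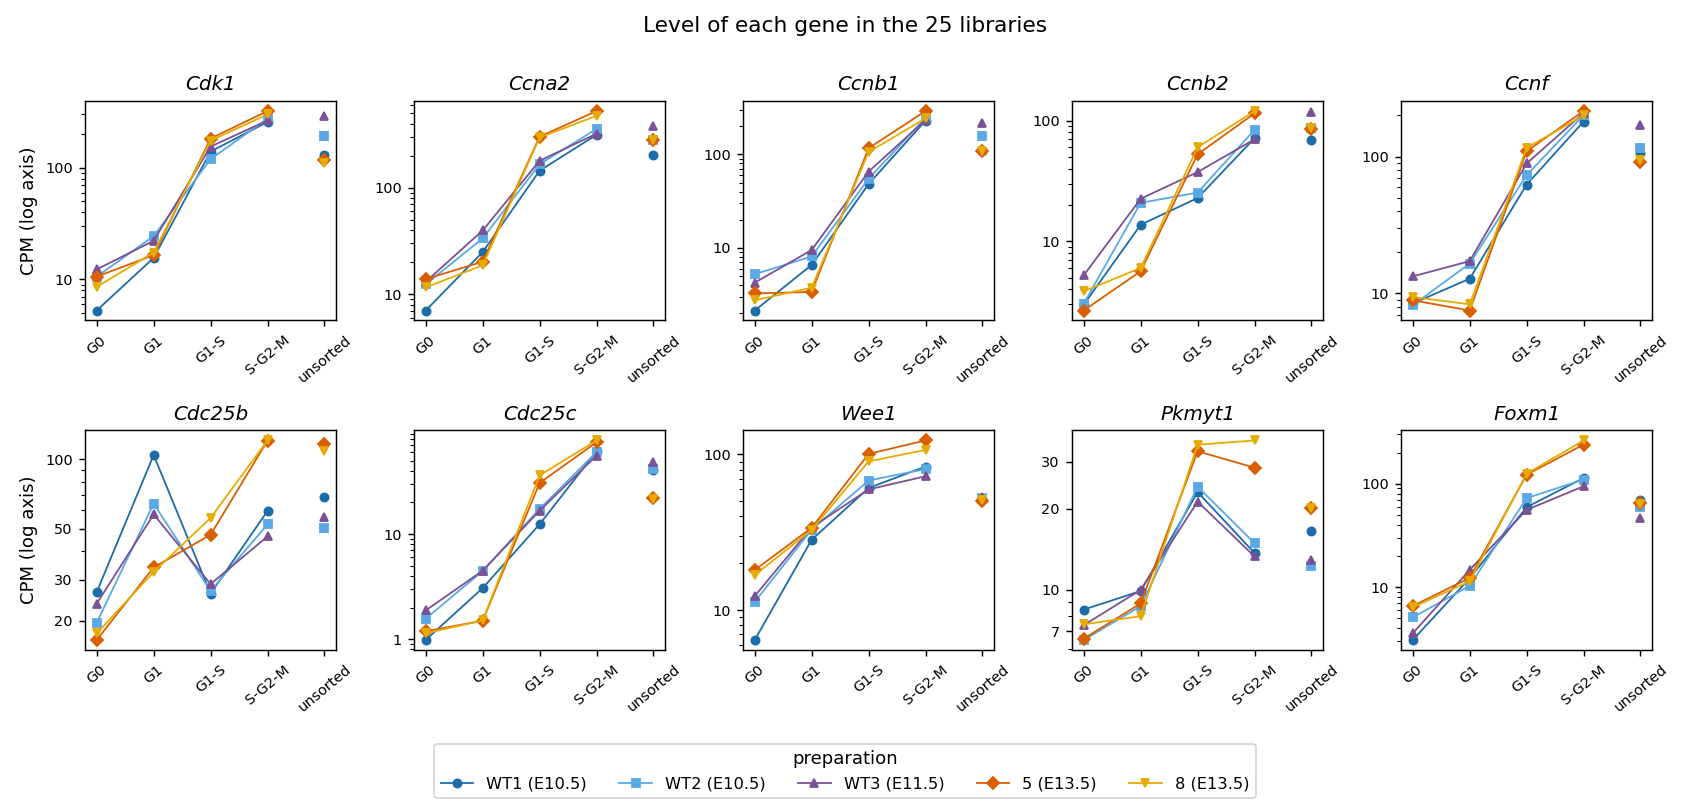
CPM of each gene (log axis) in the G0, G1, G1-S and S-G2-M gates and in unsorted cells, with 1 point per library and lines joining the gates of a preparation. Most genes climb through the gates, with the steepest stretch between G1 and G1-S, while Cdc25b dips in G1-S in the WT1, WT2 and WT3 preparations and Pkmyt1 peaks there in 4 of 5 preparations.

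Corrected for exon length, Ccna2 was the most abundant of the 10 in S-G2-M, with 97.5 ± 23.3 CPM per kb (SD, n = 5). Ccnb2 (60.0 ± 15.5), Ccnb1 (59.0 ± 5.85) and Cdk1 (57.5 ± 5.46) came next and lay within each other's spread. The level of Ccnb1 leaves out its pseudogene copies, whose counts in S-G2-M were 25.3 to 34.1% of those of Ccnb1. Its place beside Ccnb2 and Cdk1 thus depends on how reads were divided. Foxm1 (28.4 ± 13.9), Wee1 (27.3 ± 6.14), Ccnf (25.7 ± 1.67) and Cdc25b (21.4 ± 10) formed a second group that also overlapped, and Cdc25c (13.4 ± 1.96) and Pkmyt1 (5.84 ± 2.85) came last. In G0 the order was another one. Cdc25b averaged 5.58 ± 1.14 CPM per kb and Wee1 3.80 ± 1.36, but at E13.5 Wee1 was above Cdc25b (5.29 and 4.91 against 4.44 and 4.71 CPM per kb for Cdc25b in preparations 5 and 8). They were followed by Ccna2 (2.84 ± 0.659), Ccnb2 (2.32 ± 0.673), Pkmyt1 (1.99 ± 0.216) and Cdk1 (1.92 ± 0.546), neighbours in this order lying within each other's spread. Ccnb1 (0.836 ± 0.291) and Cdc25c (0.275 ± 0.0741) were near the bottom. These per-length levels use the summed exons of a gene, not the transcript that the cells used.

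Between G0 and G1, 8 of the 10 genes rose and none fell, beside 18.2% of all genes called higher. Ccnb2 had 13.7, 20.8, 22.5, 5.65 and 6.01 CPM in the G1 libraries of WT1, WT2, WT3, 5 and 8, against 2.99, 3.05, 5.23, 2.67 and 3.85 CPM in G0. Every G1 library was above every G0 library, but those of E13.5 only slightly so. The log2 change was 1.98 ± 0.35 (adjusted p = 8.26e-05 by edgeR). Cdc25b rose by 1.51 ± 0.33, Foxm1 by 1.39 ± 0.21, Wee1 by 1.37 ± 0.16, Ccna2 by 1.28 ± 0.23 and Cdk1 by 1.04 ± 0.22. Cdc25c (1.18 ± 0.37, adjusted p = 0.0144) and Ccnb1 (0.84 ± 0.30, adjusted p = 0.0342) were called, but lost the call in edgeR when WT1 was left out (adjusted p = 0.0636 and 0.147), Cdc25c also without WT2 (0.0902) and Ccnb1 also without WT3 (0.11). Within 5 and 8 alone neither of these was called (adjusted p = 0.307 for Cdc25c and 0.296 for Ccnb1). Ccnf (0.38 ± 0.20) and Pkmyt1 (0.33 ± 0.19) did not pass, with adjusted p = 0.14 and 0.201, though Ccnf was called higher within WT1, WT2 and WT3 (0.68, adjusted p = 0.00337) and with no filter on low counts (0.00896). All 14 neuronal markers fell at this step too, to a summed 865.1 to 2199 CPM in G1, against 5586 to 9858 CPM in G0, as did 6 of 10 cardiac markers. Other lists rose with the members: 9 of 10 mesenchyme and cartilage markers (2969 to 12147 CPM in G1 against 724.1 to 7173 CPM in G0), 8 of 10 neural progenitor markers (1293 to 2372 against 930.5 to 1366 CPM in G0), 8 of 10 macrophage markers (37.1 to 67.9 against 8.64 to 17.3 CPM in G0) and 8 of 13 erythroid markers (460.2 to 3269 against 111.8 to 679.9 CPM in G0). The part of these lists in the result was not tested.

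The G1-S over G1 step held the largest of the changes between neighbouring gates for 7 of the 10 genes: Cdk1, Ccna2, Ccnb1, Ccnf, Cdc25c, Pkmyt1 and Foxm1. In all, 9 rose and none fell, beside 11.7% of all genes called higher. Of all the genes called at this step 62.0% were higher, a share that was 51.9% with RLE size factors, 50.3% with DESeq2 and 50.1% when the abundant genes Gm26917 and Gm42418 were left out before scaling. Ccnb1 had 48.3, 55.0, 65.5, 116.7 and 106.2 CPM in G1-S against 6.58, 8.11, 9.50, 3.38 and 3.76 CPM in G1, in the order of preparations used above. The 2 gates did not overlap, and E13.5 had both the lowest G1 and the highest G1-S libraries. Its change of 3.65 ± 0.30, or 12.6-fold (adjusted p = 4.25e-09 by edgeR), was ahead of Cdk1 (3.0 ± 0.22), Ccna2 (2.94 ± 0.23), Cdc25c (2.92 ± 0.34), Ccnf (2.87 ± 0.20) and Foxm1 (2.72 ± 0.21). Pkmyt1 rose by 1.53 ± 0.19 and Wee1 by 1.20 ± 0.15, so both inhibitory kinases were called higher here. Ccnb2 rose by 1.49 ± 0.33 (adjusted p = 0.00229), but by 0.56 within WT1, WT2 and WT3 alone, where it was not called (adjusted p = 0.0948), and by 3.22 within 5 and 8. Markers of hepatocytes (10 of 10), macrophages (9 of 10) and heart muscle (9 of 10) also rose at this step. Hepatocyte genes summed to 31.0 to 2473 CPM in G1-S against 13.5 to 34.4 CPM in G1, and cardiac genes to 373.5 to 1129 CPM against 43.4 to 126.9 CPM. Their part in the result was not tested.

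Cdc25b was the exception. It had 26.2, 26.9, 28.8, 47.1 and 55.7 CPM in G1-S against 104.3, 64.2, 57.7, 34.0 and 32.5 CPM in G1. It was lower in G1-S in WT1, WT2 and WT3 and higher in 5 and 8. The change over all libraries, -0.77 ± 0.33, was not called (adjusted p = 0.108 by edgeR), whereas within WT1, WT2 and WT3 it was -1.45 (adjusted p = 0.000265) and within 5 and 8 it was 0.58 (adjusted p = 0.000113). It was also called lower over all libraries with DESeq2 (adjusted p = 0.0486), with no filter on low counts (7.25e-08) and without preparation 8 (0.025).

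**Figure D2:**
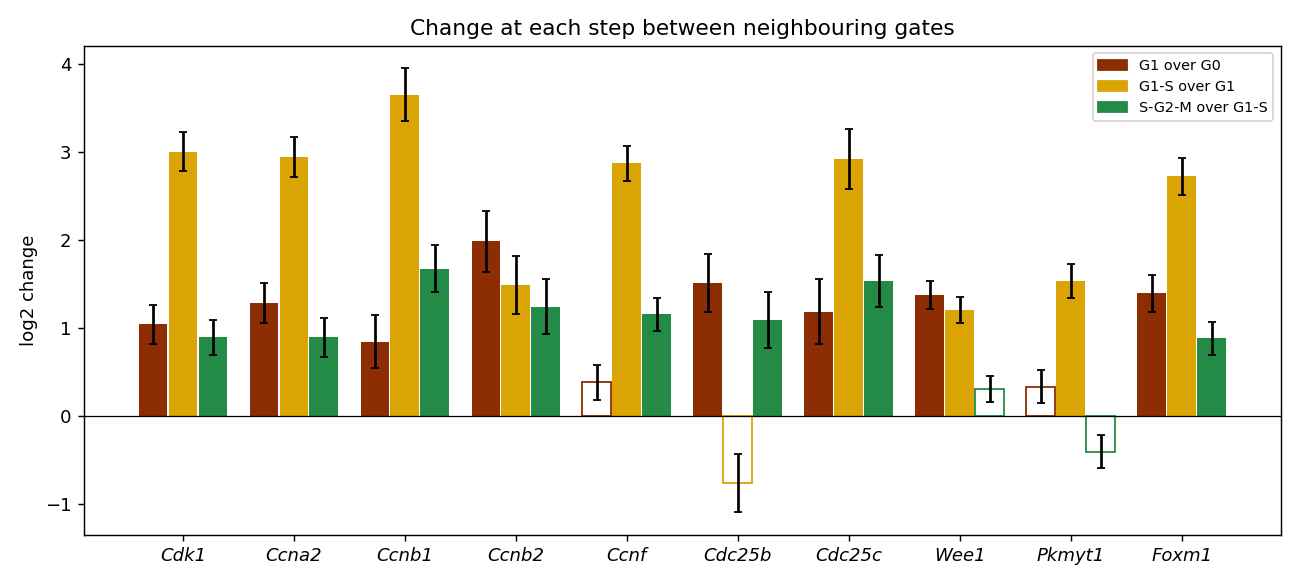
Log2 change of each gene at the steps G1 over G0, G1-S over G1 and S-G2-M over G1-S, with standard errors, from 25 libraries. Filled bars passed an adjusted p of 0.05 and open bars did not; Ccnb1 has the tallest bar, 3.65 at G1-S over G1, and Cdc25b and Pkmyt1 have the bars below 0.

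In S-G2-M over G1-S the kinase, the 4 cyclins, both phosphatases and Foxm1 rose, and neither inhibitory kinase was called. Of the 10, 8 were thus called higher in S-G2-M than in G1-S and none lower, beside 7.28% of all genes called higher and 10.1% called lower. Ccnb1 rose by 1.67 ± 0.27, 3.17-fold (adjusted p = 0.000243 by edgeR), Cdc25c by 1.53 ± 0.30, Ccnb2 by 1.24 ± 0.31, Ccnf by 1.15 ± 0.19, Cdc25b by 1.09 ± 0.32, Cdk1 and Ccna2 by 0.89 ± 0.20 and 0.89 ± 0.22, and Foxm1 by 0.88 ± 0.19. Cdc25b, the closest to the threshold (adjusted p = 0.0224), lost its call without WT2 (0.0776) or without 5 (0.067). Wee1 had 83.6, 80.5, 72.4, 123.0 and 107.0 CPM in S-G2-M against 60.9, 68.0, 59.6, 100.8 and 90.2 CPM in G1-S. It was higher in S-G2-M in 5 of 5 preparations, but by 0.30 ± 0.15, which did not pass (adjusted p = 0.183), while within 5 and 8 it was called at 0.28 (adjusted p = 0.0281). Markers of hepatocytes, macrophages and heart muscle, 10 of 10 on each list, and 8 of 8 endothelial markers fell at this step. So did 8 of 13 erythroid and 5 of 14 neuronal markers, while 4 of 10 neural progenitor markers rose. The part of these lists in the result was not tested.

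Pkmyt1 had 13.7, 14.9, 13.3, 28.5 and 36 CPM in S-G2-M against 23.1, 24.2, 21.3, 32.8 and 34.7 CPM in G1-S. It was lower in S-G2-M in 4 of 5 preparations, all but 8, and the change of -0.41 ± 0.19 was not called (adjusted p = 0.146 by edgeR). Within WT1, WT2 and WT3 it was called lower, at -0.71 (adjusted p = 0.0119). Paqr4, which overlaps Pkmyt1 on the other strand, averaged 7.69 ± 0.994 CPM in S-G2-M against 21.8 ± 4.28 CPM in G1-S (SD, n = 5 each) and 31.4 ± 4.51 CPM in G0, and its part in the values of Pkmyt1 was not tested.

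As a share of the S-G2-M level of the same preparation, the G1-S level was 31.0 ± 10.3% for Ccnb1 and 33.3 ± 10.5% for Cdc25c (SD, n = 5). For Ccnb2, Ccnf and Cdc25b it was 42.3 ± 10.6%, 44.5 ± 9.80% and 48.6 ± 8.82%. Ccna2 (53.7 ± 7.23%), Cdk1 (54.2 ± 6.17%) and Foxm1 (55.3 ± 7.31%) followed, Wee1 at 81.2 ± 4.83% and Pkmyt1 at 140.6 ± 32.7%. In G0 the share was 1.42 ± 0.515% for Ccnb1 and 2.13 ± 0.828% for Cdc25c, against 13.8 ± 3.61% for Wee1, 32.3 ± 17.3% for Cdc25b and 40.9 ± 18.6% for Pkmyt1. The G1-S share of Ccnb1 was 40.1 and 43.7% in preparations 5 and 8 and 21.1 to 28.0% in WT1, WT2 and WT3, so the order by means did not hold in each preparation. In 5 the share of Cdc25b (39.1%) was below those of Ccnb1 (40.1%) and Cdc25c (41.0%), and in 8 it was 46.2%, beside 46.5% for Cdc25c.

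**Figure D3:**
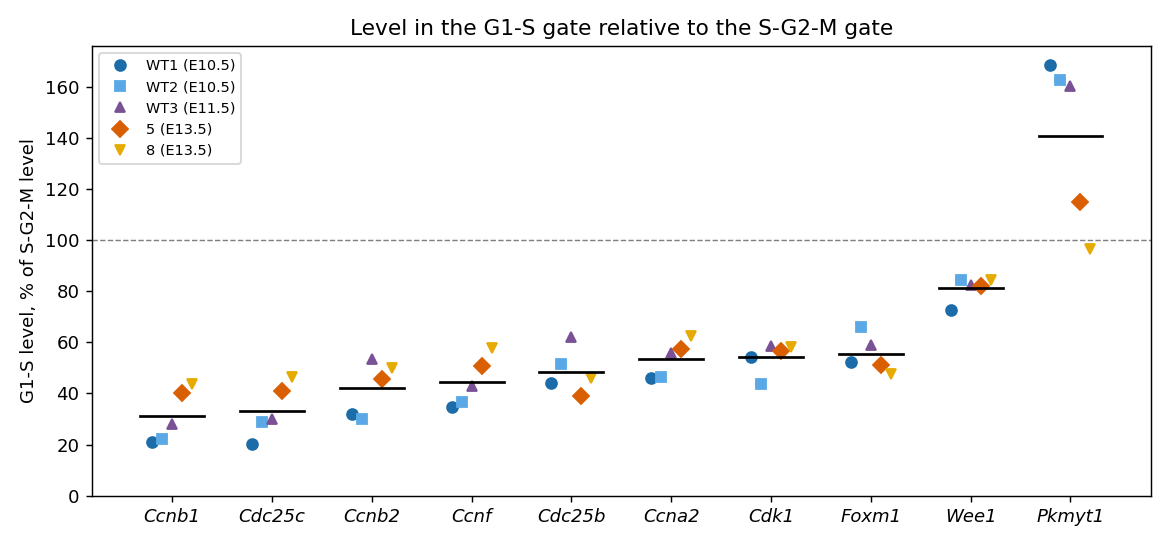
Level in the G1-S gate as a percentage of that in the S-G2-M gate of the same preparation, 1 point per preparation and a line at the mean (n = 5), with genes ordered by the mean. Ccnb1 (31.0%) and Cdc25c (33.3%) are at the low end, Wee1 (81.2%) is close to the dashed line of equal levels, and Pkmyt1 (140.6%) has 4 of 5 points above it.

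How far members differed from each other at this last step was tested over the 5 preparations for 4 pairs, each formed within a role, with an exact two-sided sign-flip permutation test whose smallest possible p is 0.063, so that no pair could pass 0.05. Ccnb1 changed more than Ccna2 in 5 of 5 preparations, by 0.84 ± 0.30 on the log2 scale (SD, exact p = 0.063, adjusted over the pairs 0.0833). Ccnb2 changed less than Ccnb1 in 5 of 5, by -0.47 ± 0.31, with the same exact p, and Wee1 changed more than Pkmyt1 in 5 of 5, by 0.76 ± 0.41, also with the same exact p. Cdc25c changed more than Cdc25b in 3 of 5 preparations, by 0.59 ± 0.58 (exact p = 0.25), and the differences ranged from -0.07 to 1.12.

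Ratios of CPM per kb give the 4 pairs, and 3 others that were not tested, as levels. Ccnb1 per Ccna2 was 0.216 ± 0.0372 in G1, 0.344 ± 0.0223 in G1-S and 0.623 ± 0.0984 in S-G2-M (SD, n = 5). Ccnb2 per Ccnb1 was 5.67 ± 1.17 in G1, 1.39 ± 0.16 in G1-S and 1.01 ± 0.219 in S-G2-M. Wee1 per Pkmyt1 was 3.83 ± 0.512 in G1, 2.97 ± 0.198 in G1-S and 5.17 ± 1.31 in S-G2-M, and Cdc25c per Cdc25b was 0.0405 ± 0.015, 0.454 ± 0.0584 and 0.706 ± 0.212 in the same gates. Of the untested ratios, Wee1, which inhibits Cdk1, stood at 2.01 ± 0.609 per Cdk1 in G0 and 2.49 ± 0.405 in G1, and at 0.709 ± 0.113 in G1-S and 0.470 ± 0.0642 in S-G2-M. Among the gates, the activator Cdc25c per inhibitor Wee1 had its highest ratio in S-G2-M, with 0.0804 ± 0.0313 in G0, 0.0649 ± 0.0314 in G1, 0.201 ± 0.0507 in G1-S and 0.499 ± 0.0443 in S-G2-M. In unsorted cells of WT1, WT2 and WT3 it was 0.548, 0.558 and 0.638, above their S-G2-M gates (0.511, 0.52 and 0.537). In unsorted cells of 5 and 8 it was 0.306 and 0.294, below their S-G2-M gates (0.423 and 0.505). Ccna2 per Cdk1 was 1.51 ± 0.149, 1.71 ± 0.344, 1.67 ± 0.352 and 1.68 ± 0.239 in the same 4 gates, means that differed by less than the SD within G1 or G1-S. With Ccnb1 and its copies summed, the pair differences of Ccnb1 against Ccna2 and of Ccnb2 against Ccnb1 were 0.85 and -0.48. The ratios with Ccnb1 leave out the copies, whose counts in S-G2-M were 25.3 to 34.1% of those of Ccnb1. Adding them would raise Ccnb1 per Ccna2 and lower Ccnb2 per Ccnb1.

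**Figure D4:**
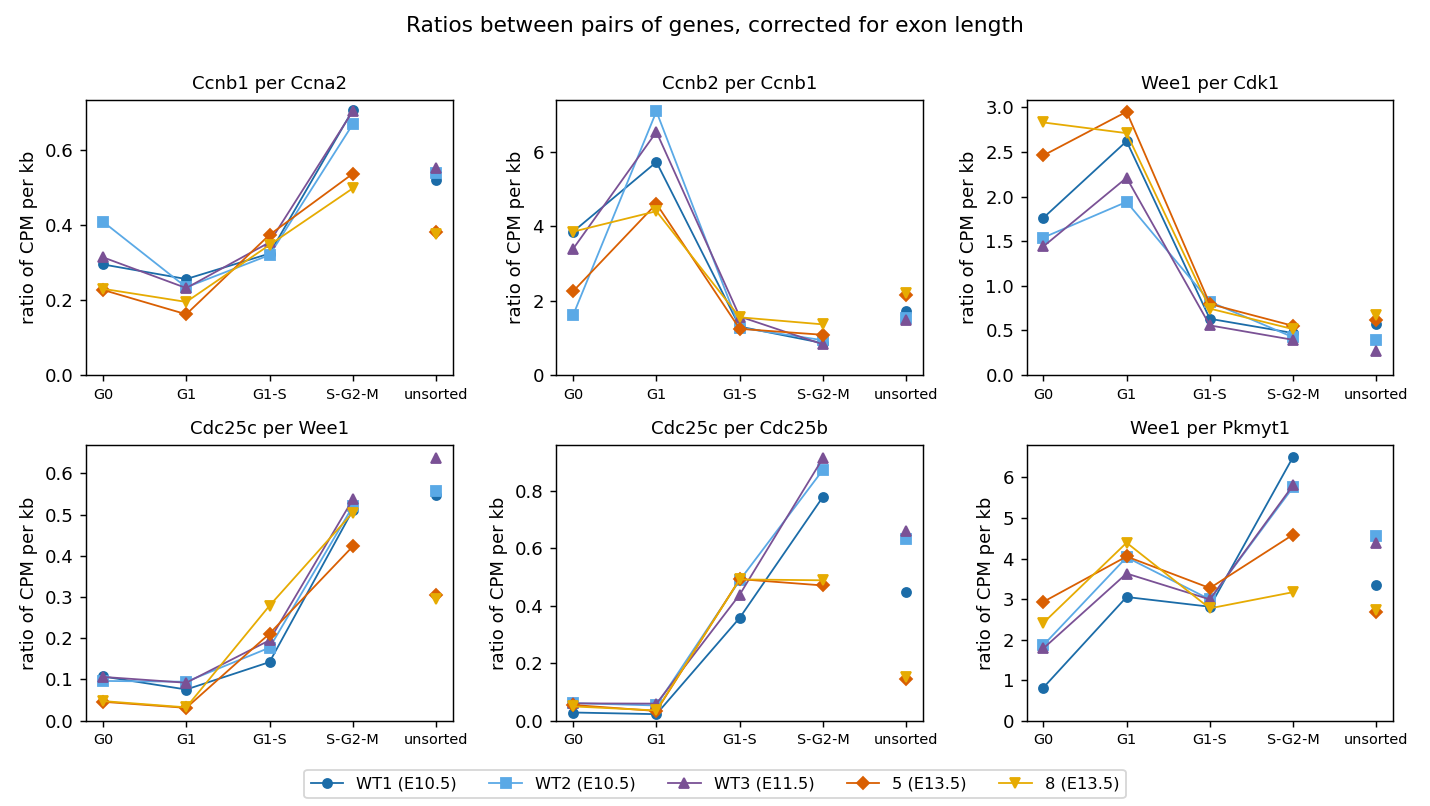
Ratio of CPM per kb between pairs of members in each fraction, 1 point per library, with lines joining the gates of a preparation. Ccnb1 per Ccna2 and Cdc25c per Wee1 are highest in S-G2-M among the gates (means 0.623 and 0.499), Wee1 per Cdk1 is lowest there (0.470), and Cdc25c per Cdc25b in S-G2-M is 0.471 and 0.489 at E13.5, below the other 3 preparations.

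Set against unsorted cells, S-G2-M cells had higher levels of 6 of the 10 members, beside 11.9% of all genes: Foxm1 (1.31 ± 0.19, adjusted p = 3.79e-05 by edgeR), Cdc25c (0.94 ± 0.30), Ccnb1 (0.86 ± 0.27), Ccnf (0.83 ± 0.19), Wee1 (0.81 ± 0.15) and Cdk1 (0.80 ± 0.21). Ccna2 (0.48 ± 0.21, adjusted p = 0.0905), Pkmyt1 (0.32 ± 0.19), Ccnb2 (0.07 ± 0.30) and Cdc25b (-0.02 ± 0.32) did not pass, and the sign of the last of these depended on the scaling. With no filter on low counts Ccna2 was called (adjusted p = 0.000434). Unsorted Cdk1 was 130.5, 193.9, 289.1, 118.2 and 109.8 CPM in WT1, WT2, WT3, 5 and 8, so the WT3 value was above that of its own S-G2-M gate, 265.1 CPM. The unsorted library of WT3 was likewise above its S-G2-M gate for Ccna2 (381.9 against 321.4 CPM in S-G2-M) and Ccnb2 (117.6 against 69.9 CPM in S-G2-M). The same held for Cdc25b in WT3 (56.0 against 46.3 CPM in S-G2-M), for Cdc25b and Pkmyt1 in WT1, and for Ccnb2 in WT2. Over all libraries 7088 genes were called, 39.6% of them higher. Within WT1, WT2 and WT3 alone, 2 of the 10 members were called, Foxm1 and Ccnf, beside 1495 genes (19.4% higher). Without preparation 5 or without 8 the count was 3, beside 3017 genes (31.2% higher) and 3356 genes (37.5% higher). Within 5 and 8 alone the count was 9, all but Cdc25b, beside 11423 genes (46.7% higher). Ccna2 was at 0.92, Pkmyt1 at 0.76 and Ccnb2 at 0.53 there. The calls among all genes thus moved with those of the members. The 2 fractions differed in cell types: 13 of 13 erythroid markers were lower in S-G2-M, with a summed 82.1 to 479.5 CPM against 16776 to 43327 CPM in unsorted cells, and so were 14 of 14 neuronal and 10 of 10 hepatocyte, macrophage and cardiac markers. Their part in the result was not tested.

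The embryonic days differed in opposite directions in the 2 middle gates. In G1, 6 members were lower at E13.5 than at E10.5 and none higher, beside 28.5% of all genes called lower. Ccnb2 had 5.65 and 6.01 CPM in the E13.5 libraries against 13.7 and 20.8 CPM at E10.5, a log2 change of -1.57 ± 0.19 (adjusted p = 6.67e-06 by edgeR). Both E13.5 libraries were below both of E10.5, as for 41.2% of all genes. Cdc25b (-1.34 ± 0.20), Cdc25c (-1.34 ± 0.23), Ccnb1 (-1.05 ± 0.29), Ccnf (-0.90 ± 0.13) and Ccna2 (-0.59 ± 0.21) also fell. Foxm1 (0.08 ± 0.17), Wee1 (0.12 ± 0.17), Pkmyt1 (-0.14 ± 0.18) and Cdk1 (-0.24 ± 0.26) did not pass. Ccna2 and Ccnb1 lost their calls without 5 or without 8 (adjusted p 0.18 and 0.306 for Ccna2, 0.136 and 0.103 for Ccnb1), where the 1 remaining E13.5 library is assumed to vary like the other groups. In the same gate 9 of 10 mesenchyme and cartilage markers rose, to a summed 12130 and 12147 CPM at E13.5 against 2969 and 4256 CPM at E10.5, and 6 of 10 neural progenitor markers and 9 of 14 neuronal markers fell. Their part in the result was not tested.

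In G1-S, 9 members were higher at E13.5 than at E10.5 and none lower, beside 19.8% of all genes called higher. Ccna2 had 301.6 and 296.4 CPM at E13.5 against 144.5 and 166.1 CPM at E10.5, and Cdc25c had 30.7 and 36.2 CPM against 12.4 and 17.4 CPM. For all 10 genes both E13.5 libraries were above both of E10.5, beside 34.1% of all genes. The changes were 1.22 ± 0.18 for Ccnb2 (adjusted p = 4.21e-05 by edgeR), 1.16 ± 0.18 for Cdc25c, 1.11 ± 0.24 for Ccnb1, 0.95 ± 0.20 for Cdc25b, 0.94 ± 0.20 for Ccna2, 0.91 ± 0.16 for Foxm1, 0.73 ± 0.12 for Ccnf, 0.57 ± 0.17 for Wee1 and 0.51 ± 0.17 for Pkmyt1. Cdk1, at 0.47 ± 0.25, did not pass (adjusted p = 0.152), and with no filter on low counts Cdk1 was called (0.02) and Pkmyt1 was not (0.0884). The count of members called was 5 without preparation 5 and 5 without 8. Hepatocyte markers rose between the days in the same gate, 10 of 10, with a summed 2473 and 1797 CPM at E13.5 against 31.0 and 37.4 CPM at E10.5. So did 9 of 10 macrophage markers and 7 of 10 mesenchyme and cartilage markers. Their part in the result was not tested.

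In S-G2-M, 6 members were higher at E13.5, beside 18.9% of all genes: Pkmyt1 (1.17 ± 0.17), Foxm1 (1.16 ± 0.15, adjusted p = 1.81e-05 by edgeR), Cdc25b (1.11 ± 0.19), Ccnb2 (0.60 ± 0.17), Ccna2 (0.57 ± 0.20) and Wee1 (0.49 ± 0.17). Foxm1 had 238.3 and 261.6 CPM at E13.5 against 113.3 and 109.6 CPM at E10.5, and 94.4 CPM in the single E11.5 library. Ccnb1 (0.17 ± 0.23), Ccnf (0.13 ± 0.12), Cdk1 (0.23 ± 0.25) and Cdc25c (0.33 ± 0.17) did not pass. The count of members called was 3 without 5 and 3 without 8; Pkmyt1, Foxm1 and Cdc25b were called in both. In this gate 10 of 14 neuronal, 7 of 13 erythroid and 6 of 10 mesenchyme and cartilage markers rose as well, while 1 neuronal and 1 erythroid marker fell. The part of these lists in the result was not tested. In G0, Wee1 (0.98 ± 0.18, adjusted p = 0.000354) and Foxm1 (0.68 ± 0.19, adjusted p = 0.00752) rose and none fell, beside 20.4% of all genes called higher; Foxm1 lost the call without WT1 (adjusted p = 0.0695), without 5 (0.141) or without 8 (0.0992). The count of 2 of 10 members in G0 is near the share of all genes called higher there. In G0, 10 of 10 mesenchyme and cartilage markers rose, to a summed 7173 and 6345 CPM at E13.5 against 724.1 and 1703 CPM at E10.5, and 7 of 10 cardiac and 7 of 14 neuronal markers fell. Their part in the result was not tested. In unsorted cells Cdc25b (0.92 ± 0.19) and Pkmyt1 (0.49 ± 0.17) rose, beside 25.2% of all genes, and Cdc25c (-0.91 ± 0.17) fell, beside 28.7%. These counts, 2 of 10 members higher and 1 of 10 lower, are below the shares of all genes. The call of Pkmyt1 in unsorted cells was lost in 8 of 10 alternative settings, those of scaling among them. Cdk1 (-0.51 ± 0.25, adjusted p = 0.0942) and Ccnf (-0.25 ± 0.12, adjusted p = 0.0801) did not pass in unsorted cells, but each was called lower in 6 of 10 alternatives. These included RLE size factors (adjusted p = 0.043 and 0.0169), DESeq2 (0.0242 and 0.0126) and Gm26917 and Gm42418 left out (0.0475 and 0.0217). In unsorted cells 10 of 10 hepatocyte markers rose, to a summed 1626 and 1216 CPM at E13.5 against 165.8 and 88.1 CPM at E10.5, as did 9 of 10 macrophage, 8 of 10 mesenchyme and cartilage and 8 of 13 erythroid markers. Their part in the result was not tested.

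**Figure D5:**
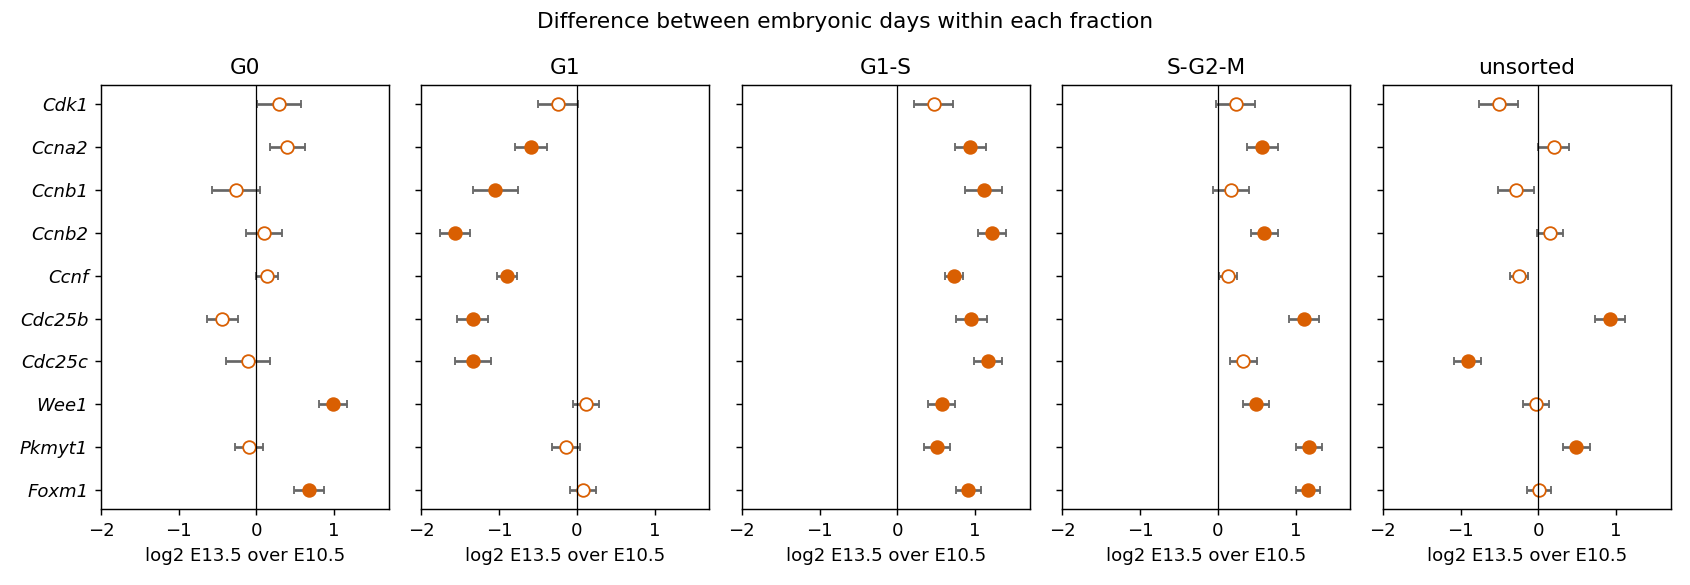
Log2 change of E13.5 over E10.5 for each gene within each fraction, with standard errors, from 2 preparations a day. Filled points passed an adjusted p of 0.05; in G1 the 6 filled points are below 0, in G1-S the 9 filled points are above 0, and in S-G2-M the 6 filled points are above 0.

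The difference between the days was tested itself in 4 steps, and 3 of these tests, those of neighbouring gates, were added after these values were seen. The G1-S over G1 change was larger at E13.5 than at E10.5 for 7 of the 10 members, beside 3.70% of all genes called higher in that difference. Ccnb2 differed most, with log2 changes of 3.21 and 3.31 in preparations 5 and 8 against 0.74 and 0.28 in WT1 and WT2, a difference of 2.79 ± 0.26 (adjusted p = 2.04e-05 by edgeR). Cdc25c (2.49 ± 0.29), Cdc25b (2.29 ± 0.28), Ccnb1 (2.15 ± 0.37), Ccnf (1.63 ± 0.18), Ccna2 (1.53 ± 0.29) and Foxm1 (0.82 ± 0.23, adjusted p = 0.0431) followed. Cdk1 (0.71 ± 0.36), Pkmyt1 (0.65 ± 0.25) and Wee1 (0.44 ± 0.24) were not called. The median over the 10 members was 1.58 beside 0.11 over all genes, and 69.8% of the genes called were higher, or 59.7% with Gm26917 and Gm42418 left out. The single E11.5 preparation, with 0.73 for Ccnb2, 1.89 for Cdc25c and 2.78 for Ccnb1, lay at or near the E10.5 values. Ccnb2 alone kept its call without 5 and without 8, and Foxm1 also lost it without WT3 (adjusted p = 0.0631), with RLE size factors (0.0591) and with Gm26917 and Gm42418 left out (0.0675). In this difference 9 of 10 hepatocyte markers and 9 of 14 neuronal markers were also called higher, and their part in the result was not tested.

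The G1 over G0 change was smaller at E13.5 for Ccnb2 (-1.68 ± 0.30, adjusted p = 0.00392 by edgeR) and Ccnf (-1.03 ± 0.19, adjusted p = 0.0047), beside 2.47% of all genes called lower. Ccnf was higher in G1 than in G0 in WT1, WT2 and WT3 and lower in 5 and 8. With a block for the preparation 6 members were called in this difference, Ccna2, Cdc25b, Cdc25c and Wee1 being the others, and without 5 or without 8 none was. No member was called in the difference of the S-G2-M over G1-S change, beside 1.02% of all genes. The lowest adjusted p by edgeR were 0.119 for Ccnf (-0.60 ± 0.17) and 0.149 for Cdc25c (-0.83 ± 0.25). DESeq2 called none there, and edgeR with no filter on low counts called Ccnb1. Under the block for the preparation the count there was 4, namely Ccnb1, Ccnb2, Ccnf and Cdc25c, all smaller at E13.5.

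For the S-G2-M over G0 change as a whole, 2 members had a larger one at E13.5 than at E10.5, beside 4.24% of all genes called higher: Cdc25b, by 1.55 ± 0.28 (adjusted p = 0.00173 by edgeR), and Pkmyt1, by 1.27 ± 0.25 (adjusted p = 0.00362). Cdc25b changed by 2.86 and 2.78 in preparations 5 and 8, against 1.16 and 1.41 in WT1 and WT2, and Pkmyt1 by 2.11 and 2.27 against 0.70 and 1.19. Both calls were lost without 5 (adjusted p = 0.163 and 0.157) and without 8 (0.137 and 0.253). Spef1, which overlaps Cdc25b on the other strand, had 22.4 and 23.6 CPM in S-G2-M at E13.5 against 10.4 and 9.39 CPM at E10.5, and its part in the Cdc25b values was not tested. In this difference 9 of 14 neuronal markers were also called higher and 5 of 10 mesenchyme and cartilage markers lower, and their part was not tested.

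Genes that act with the members were followed in lists of known roles. Beside the counts below, the shares of all genes called higher were 18.2% in G1 over G0, 11.7% in G1-S over G1 and 7.28% in S-G2-M over G1-S. Of the genes called, 50.2%, 62% and 41.9% were higher at these steps and the rest lower, so falls were common among all genes too. Of 17 genes of the Cdk1 network outside the members, 10 rose and 2 fell in G1 over G0, 11 rose in G1-S over G1 and 8 rose in S-G2-M over G1-S, with medians of 0.41, 0.89 and 0.20 on the log2 scale beside 0.01, 0.01 and 0.00 over all genes. Plk1, the kinase that activates Cdc25 proteins and marks Wee1 for destruction, rose by 3.34 ± 0.26 in G1-S over G1 and by 1.65 ± 0.24 in S-G2-M over G1-S. Aurka, which activates Plk1, rose by 2.94 ± 0.27 and 1.61 ± 0.25 at the same steps. In G1 over G0, Cdk2 (1.48 ± 0.17) and the checkpoint kinase Chek1 (1.28 ± 0.16) rose most, and Ppp2r2d (-0.45 ± 0.08), a PP2A regulatory subunit, and its inhibitor Ensa (-0.24 ± 0.09) fell.

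Of 20 genes of the anaphase-promoting complex and its partners, 4 rose and 1 fell in G1 over G0, 11 rose and 1 fell in G1-S over G1, and 8 rose in S-G2-M over G1-S. The count of 4 of 20 in G1 over G0 is near the 18.2% of all genes called higher there. Fbxo5 (Emi1), an inhibitor of the complex, rose by 2.58 ± 0.20 in G1-S over G1, and the ubiquitin-conjugating enzyme Ube2c by 2.51 ± 0.31. Ube2c (1.90 ± 0.29) and the mitotic activator Cdc20 (1.64 ± 0.29) led in S-G2-M over G1-S. Ube2c and Cdc20 also had larger G1-S over G1 changes at E13.5 than at E10.5, by 2.65 ± 0.24 and 2.25 ± 0.27. Ube2d1, another ubiquitin-conjugating enzyme, fell in G1 over G0 (-0.53 ± 0.11) and in G1-S over G1 (-0.52 ± 0.11).

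From a list of 20 genes, 19 mitotic genes known as FoxM1 or MuvB targets were tested, and the other gene, Ccnb1ip1, was not. All 19 rose in G1-S over G1 and all 19 in S-G2-M over G1-S, with medians of 3.0 and 1.30 beside 2.79 and 0.99 over the 10 members, and 16 rose in G1 over G0. Aurkb (3.71 ± 0.28) and Hmmr (3.53 ± 0.30) rose most in the first of these, Nusap1 (1.55 ± 0.26) and Cenpf (1.52 ± 0.32) were among the largest in the second, and Birc5 (2.19 ± 0.35) and Bub1b (1.62 ± 0.34) in G1 over G0. Between the days, 16 of 19 fell at E13.5 in G1 (28.5% of all genes), 11 rose in G1-S (19.8%) and 6 in S-G2-M (18.9%). In the difference of the G1-S over G1 change 16 were called higher (3.70% of all genes), Tpx2 by 2.25 ± 0.32 and Bub1b by 2.24 ± 0.47 among them.

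Of 9 relatives of the members by sequence, 8 were tested (Wee2 was not). In G1 over G0 3 rose, in G1-S over G1 3 rose and 1 fell (Foxn3, -0.33 ± 0.07), and in S-G2-M over G1-S 1 rose and 1 fell, beside 7.28% of all genes called higher and 10.1% called lower there. Cdk2 rose by 1.48 ± 0.17 in G1 over G0 and by 0.89 ± 0.16 in G1-S over G1, and Cdc25a by 0.88 ± 0.10 and 0.68 ± 0.10. Both are also on the list of the Cdk1 network and were counted there too. Ccna1, the cyclin A of germ cells, rose by 1.56 ± 0.44 in S-G2-M over G1-S, and Ccno, a cyclin of multiciliated cells, fell at that step (-3.44 ± 0.59).

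Across the 25 libraries, which share gates and preparations, the genes most like each member among 10326 candidates were described by Pearson's r of log2 CPM. Ccnb1 was closest to the spindle proteins Tpx2 and Hmmr (both 0.996) and to Nusap1 (0.994), and Cdc25c to Tpx2 (0.996), Cenpa (0.995) and Nek2 (0.993). Cdk1 was closest to Pbk (0.995), Cenpn and Kif2c (both 0.994), Ccna2 to Kif4, Anln and Aurkb (all 0.991), and Ccnb2 to Knstrn (0.983), Cenpa (0.976) and Birc5 (0.974). Ccnf was closest to Depdc1b, Ccnb1 and Kif20a (all 0.993), and Foxm1 to the separase Espl1 (0.991), Diaph3 (0.983) and Mki67 (0.979). The other 3 had lower values: Wee1 with Senp1 (0.971), Rbl1 (0.970) and Jade1 (0.966), Pkmyt1 with Nrm (0.935), Stk35 (0.907) and Tcf19 (0.905), and Cdc25b with Cdc42ep4 (0.804), Gpbp1l1 (0.802) and Mbd3 (0.798). Among members, Ccnb1 had an r of 0.993 with Ccnf and with Cdc25c, and Cdc25b one of 0.547 with Cdk1 and 0.602 with Ccnb1.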

How the data were processed

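Per the labels' protocols, minced embryos were dissociated and sorted by flow cytometry, and total RNA was purified on columns, depleted of ribosomal RNA and sequenced by Illumina's standard protocol. The authors deposited raw counts per gene. STAR 2.5.3, HTSeq 0.8.0 and the mm10 build are named in the submitters' processing notes; they give neither strand nor annotation. The 130 columns of counts were parts of 25 libraries (dispersion between parts 1.09 to 1.23, between preparations 5.9 to 117.5) and were summed. Nothing says that preparations were separate animals, so p-values measure only the spread between preparations, which may be technical.

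edgeR 4.0.16 (R 4.3.3, limma 3.58.1) was run with filterByExpr, TMM factors and robust quasi-likelihood fits. Steps between gates were fitted with fraction and day as terms, and days with a mean for each day and fraction; E11.5, with 1 preparation, was described only. Pair tests added 0.5 to each count. The scripts were tested on simulated data. Alternatives were RLE size factors, no filter, DESeq2 1.42.0, leaving out Gm26917 and Gm42418, a block for the preparation, either set of preparations alone, leaving out each preparation, other pseudocounts and, chosen after seeing the data, summing Ccnb1 with its copies. Fractions of 1 preparation share its number by title, and their deviations from the group means correlated in every pair (r 0.119 to 0.743 at E10.5, 0.316 to 0.663 at E13.5). The members and lists were chosen with earlier results of these data known. Named were all members and, from each list, up to 2 genes each way with the largest called change. Promoter windows came from RefSeq.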

Additional observations from a re-analysis of the deposited data

Results flagged for a closer look

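In 3 of 50 groups of 5 libraries, 1 library stood apart from the other 4, where chance gives about 1 in 20. These were Ccnb1 in S-G2-M, with 291.2 CPM in preparation 5 and 246.6 CPM in the next, Ccnf in G0, with 13.3 CPM in WT3 and 9.41 CPM in the next, and Wee1 in G1, with 28.3 CPM in WT1 and 32.8 CPM in the next.

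The change between gates differed between E13.5 and E10.5 by edgeR's test of the difference itself for 7 members in G1-S over G1: Ccnb2 (2.79), Cdc25c (2.49), Cdc25b (2.29), Ccnb1 (2.15), Ccnf (1.63), Ccna2 (1.53) and Foxm1 (0.82). In G1 over G0 it differed for Ccnb2 (-1.68) and Ccnf (-1.03), and in S-G2-M over G0 for Cdc25b (1.55) and Pkmyt1 (1.27). These tests share libraries, and E13.5 cannot be told apart from the preparations 5 and 8.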

How the results depend on the processing

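Of the values of single members under the alternatives, 1396 kept direction and call, 81 gained and 72 lost a call, and 41 changed sign. The cause of these changes was not tested. The lowest count of a member in a library was 22, and the part of depth in these changes was not tested. In the day comparisons, leaving out 5 or 8 left 1 library at E13.5, assumed to vary like the others.

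With a block for the preparation no member's call changed in the 5 steps between fractions. In the difference between the days the block gave 3380 genes against 2036 for S-G2-M over G0, 784 against 239 for S-G2-M over G1-S with 4 members called against 0, 2688 against 1247 for G1-S over G1, and 1818 against 825 for G1 over G0 with 6 members against 2. With no filter on low counts the last 3 differences had 778 genes with 1 member, 1988 genes, and 1563 genes with 6 members, and the day comparison in G0 called 4 members against 2. With DESeq2 the S-G2-M over G1-S difference had 467 genes and the G1 over G0 difference 4 members.

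Within WT1, WT2 and WT3, genes called were 2708 against 4087 for S-G2-M over G1-S, 2233 against 4444 for G1-S over G1, and 1495 against 7088 for S-G2-M over unsorted, with 2 members. Within 5 and 8 they were 8476 for G1-S over G1 and 11423 for S-G2-M over unsorted. There Cdc25b in G1-S over G1 was 0.58 and Ccnf in G1 over G0 was -0.23.

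Leaving out each preparation in turn gave 2430 to 3278 genes for S-G2-M over G1-S, 2529 to 5187 for G1-S over G1, and 3017 to 8655 with 3 to 7 members for S-G2-M over unsorted. For E13.5 over E10.5 it gave 5600 to 11752 genes and 1 to 5 members in G0, 5296 to 13495 genes in G1, 4361 to 12260 genes and 5 to 10 members in G1-S, 4637 to 12013 genes and 3 to 8 members in S-G2-M, and 6930 to 14319 genes and 2 to 6 members in unsorted cells. For the difference between the days it gave 231 to 4283 genes and 0 to 4 members in S-G2-M over G0, 1 to 2512 genes and 0 to 4 members in S-G2-M over G1-S, 32 to 5371 genes and 1 to 9 members in G1-S over G1, and 8 to 3753 genes and 0 to 9 members in G1 over G0.

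Members whose sign changed were not called in the results reported. In S-G2-M over unsorted, Cdc25b was 0.04 with RLE size factors, 0.05 with DESeq2, 0.03 without Gm26917 and Gm42418, 0.18 within 5 and 8 and -0.05 to 0.16 on leaving out a preparation, and Ccnb2 was -0.23 within WT1, WT2 and WT3 and -0.04 to 0.36. Between the days in unsorted cells, Foxm1 was -0.08 with RLE size factors or DESeq2, -0.02 with no filter, -0.09 without Gm26917 and Gm42418 and -0.14 to 0.12 on leaving out a preparation, Ccna2 was -0.02 to 0.41 and Ccnb2 -0.02 to 0.29. In G0 the ranges were -0.16 to 0.84 for Cdk1, -0.30 to 0.09 for Pkmyt1, -0.81 to 0.46 for Ccnb1, -0.44 to 0.21 for Cdc25c and -0.16 to 0.33 for Ccnb2, and in G1 they were -0.53 to 0.10 for Cdk1 and -0.07 to 0.20 for Foxm1. In the difference between the days of S-G2-M over G0, Cdk1 was 0.01 with RLE size factors, 0.02 with DESeq2 and -0.55 to 0.34 on leaving out a preparation, Ccnf 0.06, 0.06 and -0.10 to 0.12, Ccna2 -0.15 to 0.45 and Ccnb1 -0.23 to 0.92. Wee1 was -0.18 to 0.03 in the difference of S-G2-M over G1-S, and Pkmyt1 -0.20 to 0.15 in that of G1 over G0.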

Other observations

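Gm3550, which overlaps Cdc25c on the other strand, had 7.13, 5.34 and 5.65 CPM in the S-G2-M libraries of WT1, WT2 and WT3, 0 counts in preparation 5 and 2 counts in preparation 8 (0.145 CPM). A count of 0 allows up to 3 counts. Cdc25c itself was 61.4, 60.2 and 55.9 CPM in WT1, WT2 and WT3, and 74.8 and 77.8 CPM in 5 and 8.

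Unsorted levels of the 10 genes did not keep 1 order relative to S-G2-M. As a share of the S-G2-M level of the same preparation, unsorted Ccnb2 was 102.8 ± 38.9% and Cdc25b 103.8 ± 13.4% (SD, n = 5), against 43.2 ± 16.3% for Foxm1 and 57.9 ± 13.2% for Wee1. Within Ccnb2 the share was 168.2% in WT3 and 72.4 to 103.2% in the other preparations.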
